A study of Mus musculus with 220 samples.

Results

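The nuclear genes for subunits of the respiratory chain and the ATP synthase were examined in single endothelial cells of mouse lymph nodes. The genes were taken by symbol, as those beginning with Ndufa, Ndufb, Ndufc, Ndufs or Ndufv and a number, Sdha to Sdhd, and those beginning with Uqcr, with Cox and a number of 4 to 8, or with Atp5. This gave 84 of the 24049 symbols in the expression table, namely 37 of complex I, 4 of complex II, 8 of complex III, 18 of complex IV and 17 of complex V. The symbol rule is broader than the complexes. Atp5s and Atp5sl are kept here under complex V by their symbols, although they are now named Dmac2l and Dmac2 and are not structural subunits. Ndufa4 stands under complex I by its name, although its protein is now placed in complex IV. The rule leaves out the complex I subunit Ndufab1 and the cytochromes Cyc1 and Cycs, which are counted below in a list of other chain components.

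Complexes I and II pass electrons from NADH and succinate to ubiquinone, complex III passes them to cytochrome c, and complex IV passes them to oxygen. Complexes I, III and IV pump protons, and complex V, the ATP synthase, uses the proton gradient to make ATP. Most subunits are encoded in the nucleus, while a few core subunits are encoded in mitochondrial DNA and were not analysed here. Endothelial cells are known to draw much of their ATP from glycolysis, and their respiratory chain is known to sustain biosynthesis and proliferation.

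Each library was made from 1 cell of a C57BL/6 mouse, captured on the Fluidigm C1 system after flow sorting from dissociated lymph nodes. High endothelial cells (HEC) line the venules through which lymphocytes enter lymph nodes, and blood endothelial cells (BEC) line other blood vessels. Inflamed HEC (65 cells) came from nodes taken on day 3 after 4% oxazolone, a contact sensitizer, had been put on the skin. Dedifferentiated HEC (44 cells) came from nodes taken on day 7 after 1 injection of LTBR-Ig, a fusion protein that binds the ligands of the lymphotoxin beta receptor, whose signalling HEC need to keep their differentiated state. Homeostatic HEC (79 cells) and BEC (32 cells, also homeostatic) came from untreated mice. Nothing used here ties a cell to an animal, a pool or a chip, so each group is 1 sample and its treatment, harvest day and chip cannot be told apart. No test between groups was therefore made, SDs and intervals are over cells, and the differences below have no replicate check.

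Inflamed cells 43 and 60 had nearly identical values, with a correlation of 0.988 on the log2 scale, where the next closest pair of cells had 0.701. They were averaged and counted once, so that 219 cells were analysed, 64 of them inflamed HEC. Approximated depth had medians of 2101643 fragments in inflamed HEC, 2075838 in dedifferentiated HEC, 1790510 in homeostatic HEC and 1975980 in BEC. A gene was called detected in a cell at 1 or more FPKM, a level per transcript length and per mapped fragment. Cells had a median of 3961 detected genes in inflamed HEC, 3075 in dedifferentiated HEC, 3842 in homeostatic HEC and 2870 in BEC. All 7 HEC markers, among them Glycam1, Ccl21a and the sulfotransferase Chst4, were higher in homeostatic HEC than in BEC. Glycam1 and Ccl21a were also detected in 32 of 32 BEC, at medians of 0.112% and 0.104% of those in homeostatic HEC. Whether this came from free or carried-over RNA was not tested. No cell type lacks the subunit genes, so the share of their low values that is background was not measured. Some cells had at least 3 markers of a cell type other than blood or high endothelial at 10 or more FPKM. These were 3 inflamed HEC, 2 dedifferentiated HEC, 7 homeostatic HEC and 1 BEC. At the same limit, 24 of 32 BEC had at least 3 of the 7 HEC markers, and they were kept. The summed HEC markers had medians of 444.3 FPKM in BEC and 141394 in homeostatic HEC.

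Promoter sequences are shown for the genes that lead the 3 comparisons below, Uqcrh, Cox5b and Ndufb11, and for 2 that hold a known activator motif, Sdhb and Atp5k. Each runs from 120 bases before to 30 bases after the RefSeq start, 5′ to 3′ on the gene's strand, in build GRCm38.p6. Uqcrh encodes the hinge protein of complex III and lies on the minus strand at chr4:116075041-116075190. Sdhb encodes the iron-sulfur subunit of complex II and lies on the plus strand at chr4:140961151-140961300. Atp5k encodes subunit e, which helps ATP synthase form dimers, on the minus strand at chr5:108434370-108434519. Cox5b encodes a subunit of complex IV, on the plus strand at chr1:36691367-36691516. Ndufb11 encodes an accessory subunit of the membrane arm of complex I, on the minus strand at chrX:20617590-20617739. Capitals mark the core of the nuclear respiratory factor 1 (NRF1) motif, GCGCATGC on either strand, or of the ETS motif bound by GABP, CCGGAAGT on either strand.
Uqcrh: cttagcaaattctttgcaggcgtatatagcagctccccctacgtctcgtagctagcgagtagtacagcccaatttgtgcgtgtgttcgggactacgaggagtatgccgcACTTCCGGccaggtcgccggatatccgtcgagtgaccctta
Sdhb: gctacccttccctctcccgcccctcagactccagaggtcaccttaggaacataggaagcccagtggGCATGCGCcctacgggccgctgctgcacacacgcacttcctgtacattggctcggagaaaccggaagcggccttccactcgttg
Atp5k: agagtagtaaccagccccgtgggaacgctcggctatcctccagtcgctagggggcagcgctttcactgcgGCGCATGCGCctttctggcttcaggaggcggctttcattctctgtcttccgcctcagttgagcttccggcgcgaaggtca
Cox5b: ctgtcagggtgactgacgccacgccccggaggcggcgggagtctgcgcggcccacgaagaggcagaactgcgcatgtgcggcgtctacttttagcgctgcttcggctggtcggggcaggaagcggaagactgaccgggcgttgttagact
Ndufb11: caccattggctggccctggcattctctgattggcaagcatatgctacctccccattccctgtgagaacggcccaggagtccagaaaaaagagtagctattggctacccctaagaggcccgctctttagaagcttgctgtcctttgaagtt
Uqcrh carried the ETS core with its first base 11 bases before the start, Sdhb the NRF1 core 54 bases before it, and Atp5k 2 overlapping NRF1 cores, 1 on each strand, from 50 bases before it. None of the letters searched occurred in the Cox5b and Ndufb11 windows, which says nothing about the factors themselves.

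NRF1 and GABP are known activators of nuclear respiratory genes. Their motif cores, and the core AAGATGGC of the YY1 motif, were sought on both strands from 250 bases before to 50 bases after each RefSeq start, in 66 of the 84 genes with an entry. The NRF1 core occurred in 10 of the 66 (15.2%), against 4.03% of 16779 genes with an entry and 6.51% of the 2719 of them detected in at least 50% of the cells of a group. The YY1 core occurred in 9 (13.6%), against 3.62% of all and 5.74% of the widely detected genes. The ETS core occurred in 5 (7.58%), which lay above the 5.70% of all genes and below the 9.38% of the widely detected ones. At least 1 of the 3 was found in 34.8% of the subunit genes, 12.4% of all genes and 20.3% of the widely detected genes. A match to these letters is a description and not evidence of binding.

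The subunit genes were among the more widely detected genes. Zeros made up 20.9% of their values, against 76% over all genes. Of the 84 genes, 76 were detected in more than 10% of the cells of at least 1 group, and 8 of complexes I and IV were not. A cell had detected 48 to 75 of the genes (median 66.5) in inflamed HEC, 46 to 72 (median 62) in dedifferentiated HEC, 45 to 74 (median 65) in homeostatic HEC and 31 to 74 (median 52.5) in BEC. The ranges overlapped in all 4 groups, and the median was lowest in BEC. At a limit of 10 FPKM the medians were 60, 49, 58 and 40.5 genes in the same order of groups.

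As a share of the summed FPKM of a cell, the subunit genes took up nearly the same part in 3 of the 4 groups. The share was 1.71% to 4.80% (median 3.07%) in inflamed HEC, 1.74% to 3.84% (median 2.47%) in dedifferentiated HEC, 1.52% to 3.59% (median 2.47%) in homeostatic HEC and 1.45% to 4.41% (median 2.60%) in BEC. The HEC genes Glycam1 and Ccl21a alone made up, at the median, 4.06% of a cell's summed FPKM in inflamed HEC, 11.8% in dedifferentiated HEC, 20.8% in homeostatic HEC and 0.0290% in BEC. Without these 2 genes, the median share of the subunit genes was 3.25% in inflamed HEC, 2.89% in dedifferentiated HEC, 3.08% in homeostatic HEC and 2.60% in BEC. Complex I took the largest share in all 4 groups, with medians between 0.855% and 1.07%, and complex II the smallest, with medians between 0.0270% and 0.0557%.

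**Figure D1:**
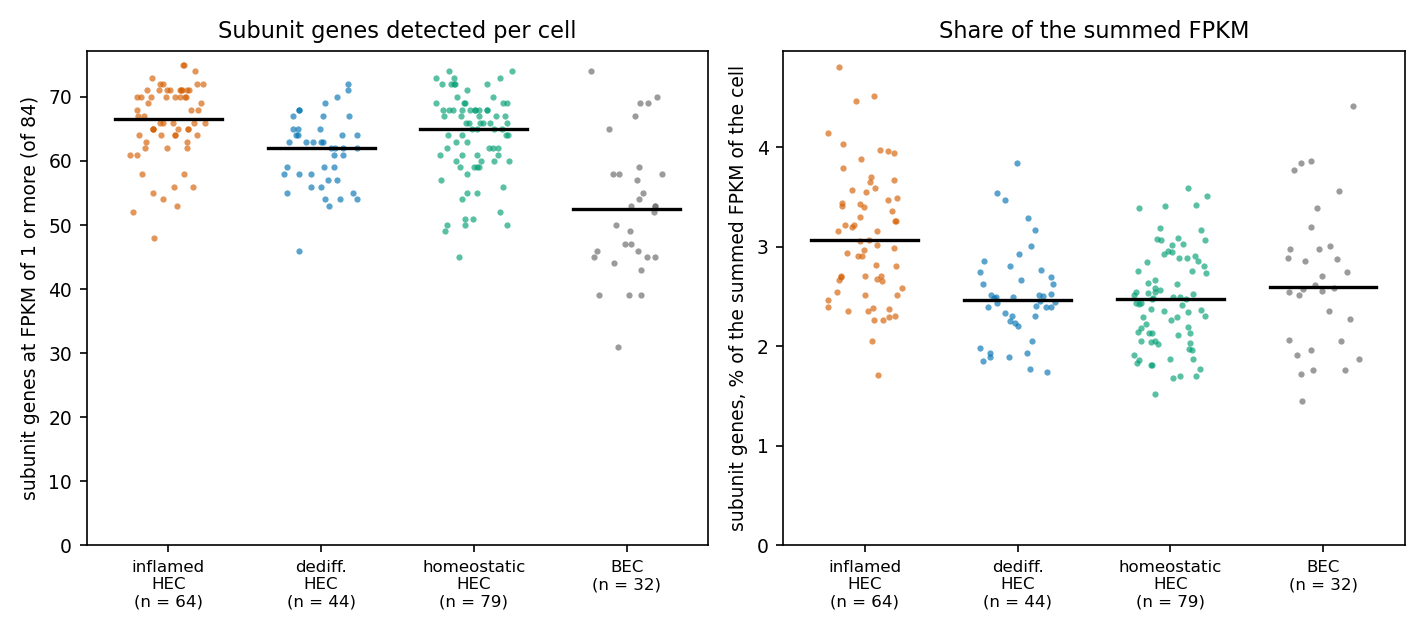
Per-cell values of the 84 subunit genes in the 4 groups, with 1 point per cell and the number of cells under each group. The left plot gives the number of subunit genes at 1 FPKM or more and the right plot their percent of the summed FPKM of the cell. The median number is 65 in homeostatic HEC and 52.5 in BEC, while the shares of summed FPKM overlap (medians 2.47% in homeostatic HEC and 2.60% in BEC).

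FPKM values are per length, so levels of different genes can be set side by side. The gene with the highest mean level was Cox6a1, the widely expressed form of a regulatory subunit of complex IV. It had 5.55 to 4249 FPKM (median 1440) in inflamed HEC, 20.9 to 1996 (median 888.5) in dedifferentiated HEC, 0 to 3697 (median 1258) in homeostatic HEC and 7.04 to 4016 (median 1036) in BEC. It was detected in 218 of the 219 cells. Within complex IV it was followed by Cox4i1, the subunit on which regulation by ATP is known, and by Cox6c. The lowest of the detected complex IV genes was Cox5a, at a mean log2(FPKM + 1) of 4.91 over the 4 groups.

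In complex III the highest levels belonged to the small subunits Uqcrb, Uqcr11 and Uqcrh, at means of 8.27, 7.77 and 7.51. The Rieske iron-sulfur protein Uqcrfs1, which carries electrons to cytochrome c1, was the lowest at 2.75. In complex I the accessory subunit Ndufa3 was highest (7.86), followed by Ndufa1 (7.65) and Ndufa4 (7.61). The lowest was Ndufs1 (1.85), the large core subunit that holds iron-sulfur clusters. In complex V the stalk and membrane subunits Atp5l, Atp5j and Atp5e had means of 7.86, 7.34 and 7.33, and Atp5s was lowest at 0.45. These ranks are means of log2(FPKM + 1). Apart from Cox6a1, the leading genes of a complex lay closer together than the SD over cells of any of them, which was 1.12 to 3.29 within single groups.

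The 4 genes of complex II, which also works in the citric acid cycle, were lower and detected in fewer cells than most others. Sdhb had a median of 64.9 FPKM in inflamed HEC, 2.04 in dedifferentiated HEC, 42.8 in homeostatic HEC and 14.5 in BEC. The flavoprotein Sdha, which oxidizes succinate, had medians of 8.19, 5.04, 8.45 and 0.930 in the same order. The membrane anchor Sdhc had 16.7, 4.71, 4.61 and 0.485, and the other anchor, Sdhd, had 3.94, 6.10, 24.6 and 0.415. Each of the 4 was at 0 in some cells of every group, and the order of the groups differed from gene to gene.

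Homeostatic HEC were set against BEC to ask how the 2 vessel types of the untreated node differ. On the mean of log2(FPKM + 1), most subunit genes of all complexes were higher in homeostatic HEC. Of the 76 genes that passed the filter, 50 were higher by 1 or more (a doubling on this scale) and none was lower by as much, where 17% of the 9248 genes tested were higher and 4.40% lower by 1. The median difference was 1.46 over the subunit genes and 0.28 over all genes. Among genes detected in at least 50% of the cells of either group, 50 of 72 subunit genes were higher by 1, where 38% of all such genes were higher and 9.02% lower. Under the first filter the count was 24 of 36 in complex I, 1 of 4 in complex II, 6 of 8 in complex III, 8 of 11 in complex IV and 11 of 17 in complex V. Cells had a mean level over the 84 genes of 5.26 ± 0.66 in homeostatic HEC (SD, n = 79 cells) and 3.98 ± 0.95 in BEC (SD, n = 32 cells).

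The largest difference was that of Uqcrh. It had 15.9 to 1488 FPKM (median 515.5) in homeostatic HEC and 0 to 1539 (median 69.6) in BEC, a difference of 3.14 between mean log2 values. The lowest homeostatic HEC lay above the lowest BEC, and the highest cells of the groups were close. The complex IV subunit Cox7b had 0 to 594.2 FPKM (median 116.4) in homeostatic HEC and 0 to 275.8 (median 15.8) in BEC. It was detected in 97.5% of homeostatic HEC (exact Clopper-Pearson 95% interval 91.2% to 99.7%) and in 62.5% of BEC (43.7% to 78.9%), and its means differed by 3.05. Such intervals cover counting error over cells only.

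Complex I followed with Ndufb11, an X-linked accessory subunit, and Ndufa1, an X-linked subunit needed for assembly, both with differences of 2.77. Ndufb11 had 0 to 751.7 FPKM (median 111.8) in homeostatic HEC and 0 to 794.6 (median 1.02) in BEC. Ndufa1 had 0 to 1751 (median 512.8) in homeostatic HEC and 0 to 864.0 (median 98.2) in BEC. The groups overlapped in both genes, with BEC more often at or near 0. Next came Ndufs5 (2.52), an accessory subunit of complex I, and the ATP synthase subunit Atp5j2 (2.33). Ndufa5, Atp5k, Atp5e, Cox7c, Ndufa2 and Ndufb4 differed by 2.13 to 2.18. Only the core protein Uqcrc2 of complex III (-0.52) and Ndufs4 of complex I (-0.07) had lower means in homeostatic HEC.

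**Figure D2:**
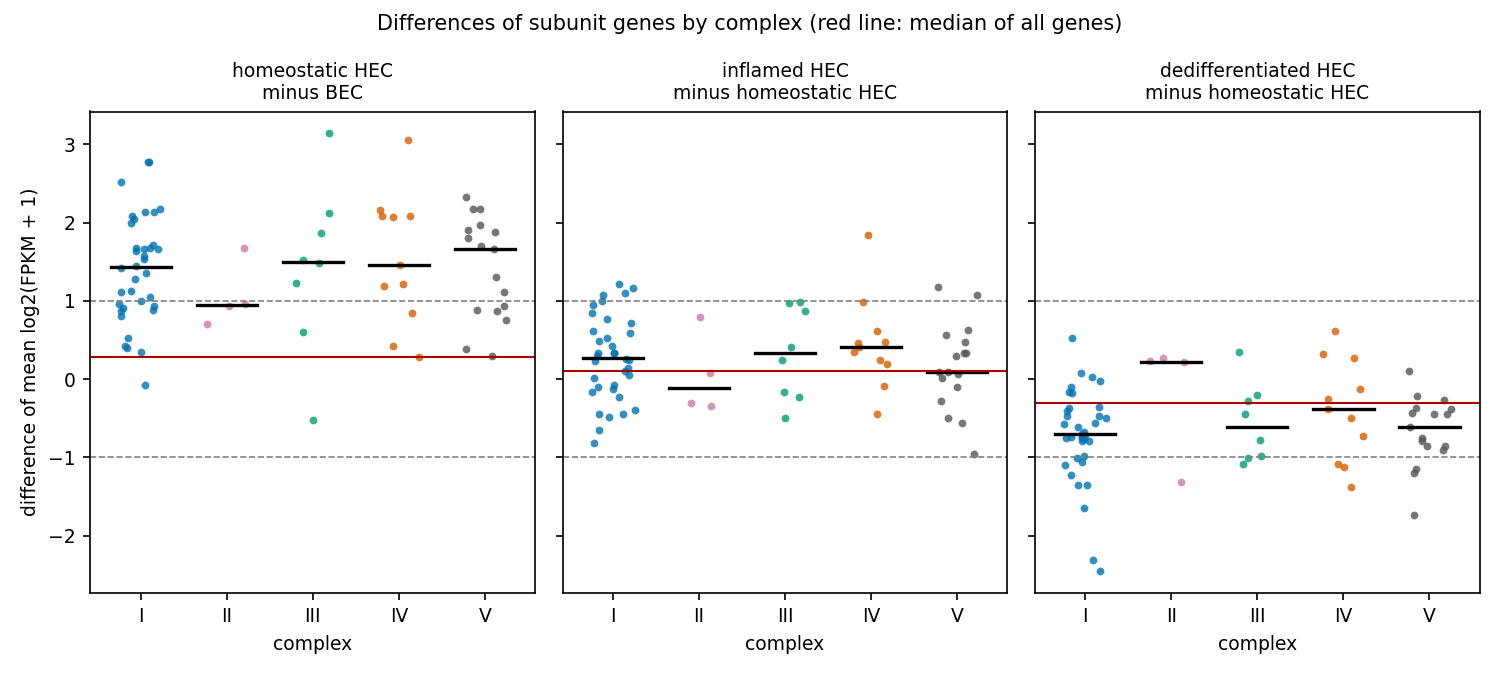
Difference of mean log2(FPKM + 1) for each subunit gene that passed the filter, by complex, in the 3 comparisons, with 1 point per gene. The red line is the median over all genes tested (0.28, 0.10 and -0.30). In homeostatic HEC minus BEC 74 of 76 subunit genes lie above 0, as do 6207 of the 9248 genes tested. In dedifferentiated minus homeostatic HEC 65 of 76 lie below 0, as do 6822 of the 9008 genes tested.

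The size of this difference depended on the scale. On the log2 ratio of the arithmetic mean FPKM, which gives the highest cells more weight, 10 of 76 subunit genes were higher in homeostatic HEC by 1 or more and 1 was lower, where 28.7% of all genes were higher and 21.8% lower. The median was 0.40 over the subunit genes and 0.07 over all genes. The largest ratio was 7.94, that of the 1 gene of 17 in complex V that was past 1. Uqcrh and Cox7b stayed higher on this scale, at 1.34 and 1.70, as did Ndufa1 at 1.38 and Ndufs5 at 1.64. Ndufb11 was at 0.65. Uqcrc2, the 1 gene lower, was at -1.36, and its highest value was 490.9 FPKM in homeostatic HEC and 1541 in BEC.

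Part of the log-scale difference lay in the number of cells in which a gene was seen. The median share of cells with a detected gene was 91.1% in homeostatic HEC and 75% in BEC, and 73 of 76 genes (96.1%) were detected in a larger share of homeostatic HEC, as were 72.1% of all genes tested. Among cells with the gene detected, the median difference was 0.57 over the subunit genes and -0.19 over all genes, with 22 genes higher and 3 lower by 1 or more. Over all genes tested these were 13.3% higher and 21.2% lower. All genes tested were detected in fewer cells, at medians of 31.6% in homeostatic HEC and 21.9% in BEC. Genes detected as widely as the subunit genes were not compared in this way. Of all subunit values in homeostatic HEC, 12.8% were 0 and 11.3% lay above 0 but under 10 FPKM, against 21.7% and 21.5% in BEC. Over all genes past the filter these were 46.9% and 28.9% in homeostatic HEC and 48.8% and 32.1% in BEC. Homeostatic HEC also had more detected genes and a higher summed FPKM, with a median of 664817 against 469532 in BEC, and the part of these in the result was not tested. Among cells with 2500 to 4500 detected genes (62 homeostatic HEC and 20 BEC), 41 genes were higher by 1 and 1 was lower, where 13.7% of all genes were higher and 8.67% lower.

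**Figure D3:**
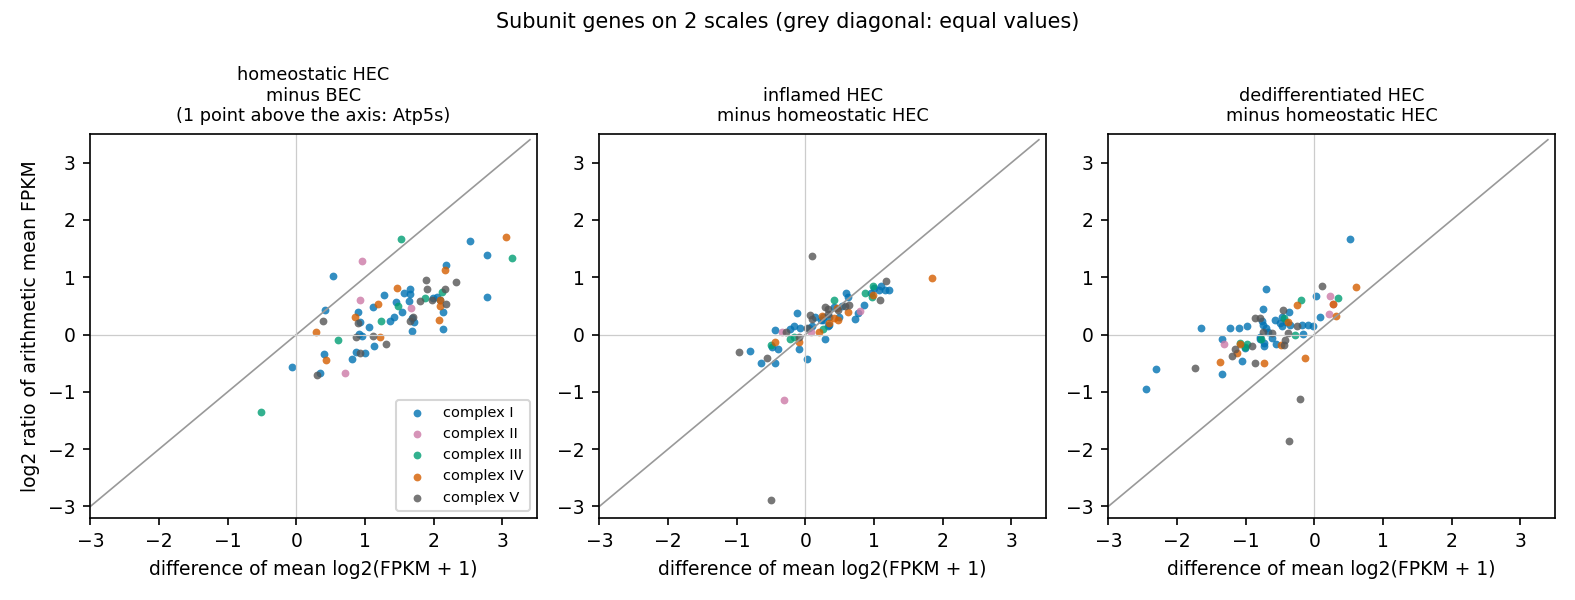
Each subunit gene placed by its difference of mean log2(FPKM + 1) on the horizontal axis and by the log2 ratio of its arithmetic mean FPKM on the vertical axis, for the 3 comparisons, coloured by complex. The grey diagonal marks equal values. In homeostatic HEC minus BEC most points lie right of the diagonal, with medians of 1.46 and 0.40 on the 2 scales.

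Inflamed HEC were set against homeostatic HEC to ask what changes when the node drains inflamed skin. The subunit genes differed little between these groups as a set, with a few higher in inflamed HEC. Of 76 genes, 8 were higher by 1 or more and none was lower by as much, where 5.48% of the 9525 genes tested were higher and 2.60% lower. The median difference was 0.28 over the subunit genes and 0.10 over all genes. Among genes detected in at least 50% of the cells of either group, 8 of 73 subunit genes were higher, where 12.7% of all such genes were higher and 6.24% lower. The share of subunit genes higher by 1 thus did not exceed that of all such genes. After scaling by median ratios the split was 4 higher and 1 lower of 76, near the 3.99% higher and 2.79% lower of all genes. The mean level per cell was 5.50 ± 0.76 in inflamed HEC (SD, n = 64 cells) and 5.26 ± 0.66 in homeostatic HEC.

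Cox5b, a zinc-binding subunit of complex IV, stood out. It had 29.3 to 1653 FPKM (median 265.5) in inflamed HEC and 0 to 993.8 (median 109.3) in homeostatic HEC, and its means differed by 1.84. It was detected in 64 of 64 inflamed HEC and 71 of 79 homeostatic HEC, so that the low end of the range differed most. The ratio of its arithmetic means was 0.98 on the log2 scale. Its partner Cox5a differed by 0.46.

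In ATP synthase the catalytic subunit Atp5b had 5.17 to 1592 FPKM (median 288.6) in inflamed HEC and 0 to 847.6 (median 141.9) in homeostatic HEC, a difference of 1.18. Atp5g3, a copy of the proton-carrying c subunit, had medians of 285.5 FPKM in inflamed HEC and 129.8 in homeostatic HEC, a difference of 1.08. The other copies, Atp5g1 and Atp5g2, differed by 0.63 and 0.02. In complex I, the accessory subunits Ndufb2 (1.22), Ndufc1 (1.10), Ndufb3 (1.07) and Ndufa8 (1.0) were among those higher in inflamed HEC. Ndufb2 had medians of 26.9 FPKM in inflamed HEC and 11.1 in homeostatic HEC.

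On the ratio of arithmetic means, 1 gene was higher and 2 were lower by 1 or more in inflamed HEC, where 18.3% of all genes were higher and 13.1% lower. These were the little detected Atp5sl (1.37) and Atp5s (-2.89), and Sdha (-1.15), named after their values were seen. The median log2 ratio was 0.28 over the subunit genes and 0.13 over all genes. The share of summed FPKM was a median of 3.07% in inflamed HEC and 2.47% in homeostatic HEC. Without Glycam1 and Ccl21a it was 3.25% in inflamed HEC and 3.08% in homeostatic HEC.

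Dedifferentiated HEC were set against homeostatic HEC to ask what differs after LTBR-Ig. On the log2 scale many subunit genes were lower in dedifferentiated HEC, and so were many other genes. Of 76 genes, 18 were lower by 1 or more and none was higher, where 9.52% of the 9008 genes tested were lower and 0.833% higher. The median difference was -0.61 over the subunit genes and -0.30 over all genes. Among genes detected in at least 50% of the cells of either group, which are closer in level to the subunit genes, 18 of 72 subunit genes were lower, where 23.2% of all such genes were lower and 1.88% higher. The medians under that filter were -0.68 over the subunit genes and -0.56 over all genes, so that the share of subunit genes lower by 1 lay near that of all such genes. After scaling by median ratios the split was 5 lower and 1 higher of 76, near the 4.02% lower and 2.05% higher of all genes. The mean level per cell was 4.70 ± 0.73 in dedifferentiated HEC (SD, n = 44 cells) and 5.26 ± 0.66 in homeostatic HEC. The treated groups share the homeostatic HEC they are compared with.

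The genes lower by 1 were 9 of 36 in complex I, 1 of 4 in complex II, 2 of 8 in complex III, 3 of 11 in complex IV and 3 of 17 in complex V. The largest differences were in complex I. Ndufb11 had 0 to 578.5 FPKM (median 5.02) in dedifferentiated HEC and 0 to 751.7 (median 111.8) in homeostatic HEC, a difference of -2.45. It was detected in 30 of 44 dedifferentiated HEC and 74 of 79 homeostatic HEC. Ndufv3, a small subunit of the NADH-oxidizing module, had 0 to 732.7 FPKM (median 0.830) in dedifferentiated HEC and 0 to 518.0 (median 39.1) in homeostatic HEC, a difference of -2.31. It was detected in 21 of 44 dedifferentiated HEC and 63 of 79 homeostatic HEC. The groups overlapped in both genes, and more dedifferentiated cells were at or near 0.

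In ATP synthase, Atp5f1, a subunit of the peripheral stalk, had 0 to 1138 FPKM (median 45.5) in dedifferentiated HEC and 0 to 696.9 (median 187.1) in homeostatic HEC, a difference of -1.74. Atp5l and Atp5g3 differed by -1.20 and -1.15. The complex I subunits Ndufb9 (-1.65), Ndufs5 (-1.35), Ndufb4 (-1.35), Ndufc1 (-1.23), Ndufa12 (-1.10), Ndufa4 (-1.06) and Ndufs8 (-1.01) were also lower. In complex IV these were Cox7a2l (-1.38), known as an assembly factor of supercomplexes, Cox7c (-1.12) and Cox7a2 (-1.08). In complex III they were Uqcrq (-1.08) and Uqcrh (-1.01), and in complex II Sdhb (-1.31), while Sdha, Sdhc and Sdhd had differences of 0.27, 0.22 and 0.23.

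These lower means came with low values more than with absent ones. The median share of cells with a detected gene was 88.6% in dedifferentiated HEC and 91.1% in homeostatic HEC, and among cells with the gene detected 66 of 76 genes (86.8%) had a lower mean in dedifferentiated HEC, where 48.7% of all genes tested did. The median difference in such cells was -0.59 over the subunit genes and 0.01 over all genes. All genes tested were detected in fewer cells, at medians of 22.7% in dedifferentiated HEC and 32.9% in homeostatic HEC. Genes detected as widely as the subunit genes were not compared in this way. Of the subunit values in dedifferentiated HEC, 24.5% lay above 0 but under 10 FPKM, against 11.3% in homeostatic HEC. Over all genes past the filter these were 34.4% and 28.9%. Values of 0 made up 11.5% in dedifferentiated HEC and 12.8% in homeostatic HEC, where they made up 47% and 46.9% over all genes past the filter. Uqcrb, for instance, was above 0 in all 44 dedifferentiated cells, from 3.43 FPKM upward. Highest values were not lower throughout, since Ndufb9 reached 2955 FPKM in a dedifferentiated HEC and 754.5 in homeostatic HEC. On the ratio of arithmetic means 1 gene was higher and 2 were lower by 1 or more in dedifferentiated HEC, where 17.2% of all genes were higher and 22.5% lower, and the median was 0.07. These were the core subunit Ndufs1 (1.67), and Atp5s (-1.12) and Atp5sl (-1.86), named after their values were seen. The share of summed FPKM was a median of 2.47% in both groups. Dedifferentiated HEC had 3075 detected genes at the median, against 3842 in homeostatic HEC, whose part in the result was not tested.

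**Figure D4:**
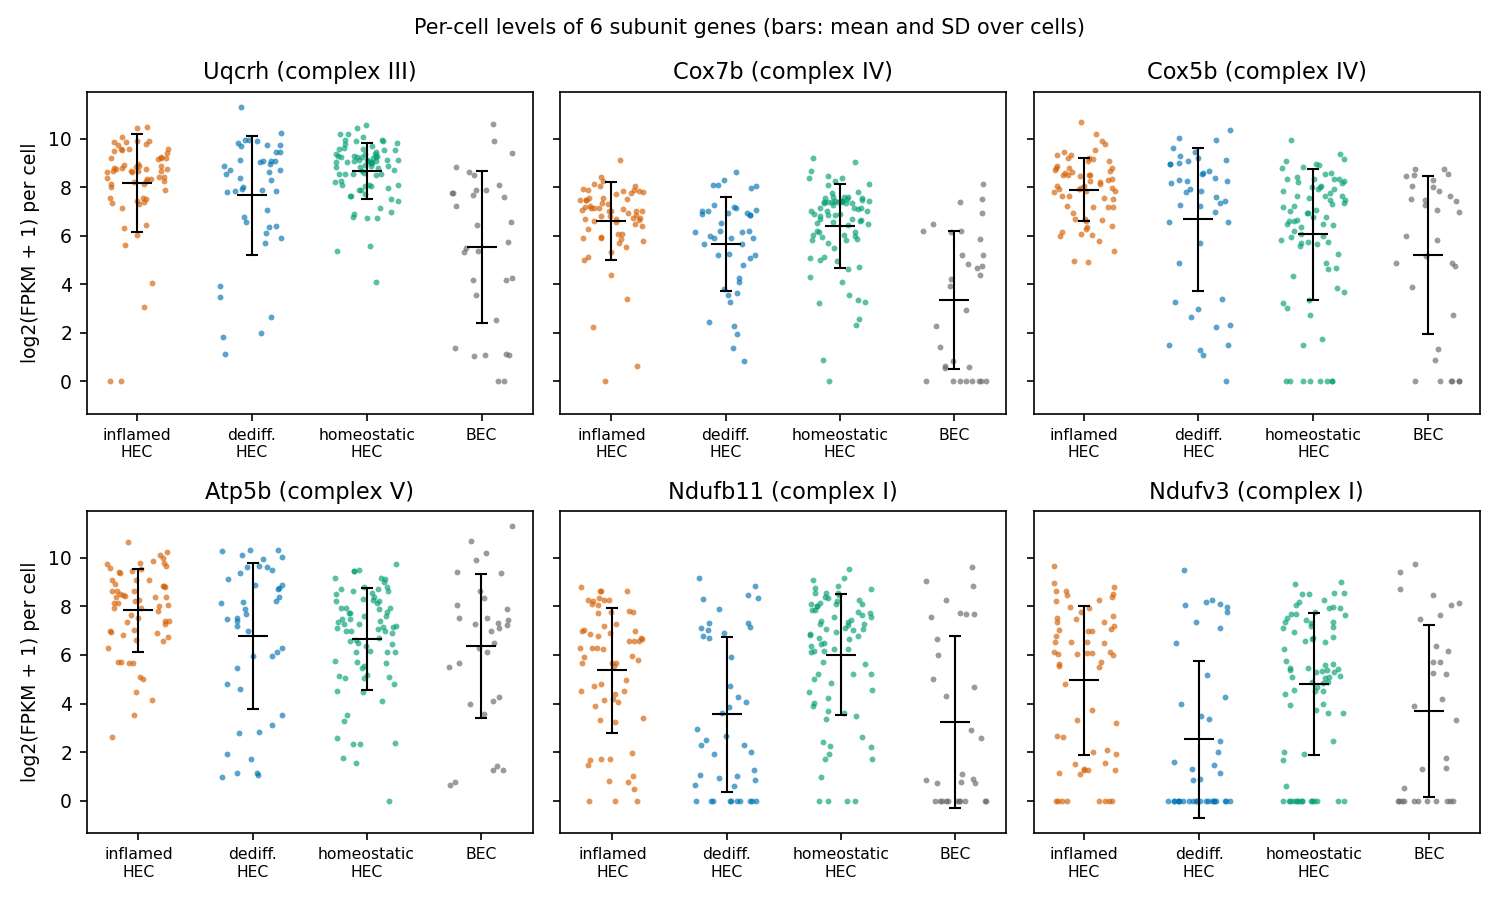
Level of 6 subunit genes in each cell as log2(FPKM + 1), by group, with 1 point per cell and bars for the mean and SD over cells. Uqcrh and Cox7b are lowest in BEC, Cox5b and Atp5b are highest in inflamed HEC, and Ndufb11 and Ndufv3 have many cells at or near 0 in dedifferentiated HEC (medians 5.02 and 0.830 FPKM, against 111.8 and 39.1 in homeostatic HEC).

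Several subunits of complex IV have forms typical of heart and muscle, lung or testis, and these were almost absent. Cox6a2, Cox7b2, Cox8b and Cox8c were listed at 0 in every cell. Cox4i2, a form known from lung, smooth muscle and pericytes, was detected in 1 inflamed HEC, 2 homeostatic HEC and no other cell. Its highest value was 13.4 FPKM, whereas its widespread counterpart Cox4i1 had medians of 431.3 FPKM in inflamed HEC, 603.5 in dedifferentiated HEC, 517.1 in homeostatic HEC and 273.6 in BEC. Cox7a1, the heart and muscle form, was detected in 1 inflamed HEC, 2 dedifferentiated HEC and 2 homeostatic HEC, up to 167.5 FPKM. Its widespread counterpart Cox7a2 had medians of 169.9, 99.3, 117.3 and 83.3 FPKM in inflamed HEC, dedifferentiated HEC, homeostatic HEC and BEC. Cox6b2, the testis form, was detected in 2 inflamed and 2 homeostatic HEC. It reached 114.6 FPKM in an inflamed HEC and 348.8 FPKM in a homeostatic HEC. Cox6b1 had medians of 372.3, 347.8, 208.3 and 68.4 FPKM in the same order of groups. Cox8a had medians of 224.1, 160.9, 197.7 and 139.9 FPKM.

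Ndufa4l2, a hypoxia-induced relative of Ndufa4 that is also a marker of pericytes, was detected in 3 homeostatic HEC and 3 BEC. In 5 of the 6 cells it had 1.02 to 1.95 FPKM. The other, BEC 30, had 282.0 FPKM together with the pericyte genes Rgs5 (674.5 FPKM) and Kcnj8 (278.5 FPKM), and 5 of 10 pericyte markers reached 10 FPKM in it. The summed pericyte markers of that cell were 1170 FPKM, where the median BEC had 1.26. Ndufa4 itself was detected in 64 of 64 inflamed HEC, 42 of 44 dedifferentiated HEC, 78 of 79 homeostatic HEC and 31 of 32 BEC.

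Genes that work with the chain did not all move as the subunits did. Over all genes tested, 17% were higher by 1 or more in homeostatic HEC than in BEC, and 4.40% were lower. In homeostatic HEC minus BEC, 7 of 9 other chain components were higher by 1, with a median of 1.42, among them the copper chaperone Cox17 (3.29) and cytochrome c, Cycs (1.42). Cytosolic ribosomal protein genes, another group of short and abundant transcripts, were higher in 70 of 77 cases with a median of 1.63. Mitochondrial ribosomal protein genes were higher in 24 of 77 and lower in 1, with a median of 0.72. The lists of assembly factors (4 of 34, median 0.34), citric acid cycle enzymes (2 of 17, median 0.58) and biogenesis regulators (1 of 10, median 0.55) had medians nearer to the 0.28 of all genes. The regulator past 1 was Tfam (1.63), which packages mitochondrial DNA and helps start its transcription. The regulators depended on the scale. On the ratio of arithmetic means 8 of 10 were higher by 1 and 0 lower, with a median of 2.13. Over all genes 28.7% were higher and 21.8% lower, with a median of 0.07. Assembly factors had 11 higher and 7 lower of 34 (median 0.17) on that scale. Citric acid cycle enzymes had 2 higher and 4 lower of 17 (median -0.15). Carriers and pores were higher in 7 of 15, led by the import channel Timm23 (2.54) and the ADP/ATP carrier Slc25a5 (2.49), and antioxidant enzymes in 4 of 10, led by the glutathione peroxidase Gpx1 (2.74). Of 10 hypoxia-responsive genes 2 were higher, the glucose transporter Slc2a1 (2.37) and the hypoxia factor Hif1a (1.08), and Epas1, its relative, was lower (-1.14). Markers of dissociation and heat shock moved with this comparison, 10 of 14 being higher and 1 lower, and their part in the result was not tested.

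In inflamed minus homeostatic HEC, 5.48% of all genes tested were higher and 2.60% lower by 1 or more, with a median of 0.10. Of 17 citric acid cycle genes, 3 were higher by 1. These were malate dehydrogenase Mdh2 (1.94), citrate synthase Cs (1.2) and Dlst (1.07), a part of oxoglutarate dehydrogenase. Mdh2 had a median of 223.4 FPKM in inflamed HEC and 34.2 in homeostatic HEC. Atpif1, the inhibitor of ATP synthase, was higher by 1.87, with medians of 170.1 and 52.8 FPKM in the same order. Of 15 carriers and pores 4 were higher, among them the uncoupling protein homologue Ucp2 (1.77), detected in 29 of 64 inflamed HEC and 10 of 79 homeostatic HEC. Hif1a (1.75) and lactate dehydrogenase Ldha (1.47) were the 2 of 11 hypoxia-responsive genes past 1. Assembly factors (0 of 34) and biogenesis regulators (0 of 10) had none. Mitochondrial ribosomal genes were higher in 7 of 77 (median 0.24) and cytosolic ones in 2 of 77 (median 0.09). Dissociation and heat shock genes were lower by 1 in 7 of 14 cases in inflamed HEC, and their part in the result was not tested.

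In dedifferentiated minus homeostatic HEC, 9.52% of all genes tested were lower by 1 or more and 0.833% were higher, with a median of -0.30. Of 9 other chain components 5 were lower by 1, with a median of -1.04. Cycs had a median of 10 FPKM in dedifferentiated HEC and 63.1 in homeostatic HEC, and its difference was -2.05 between mean log2 values and -1.42 as a log2 ratio of arithmetic means. Of 17 citric acid cycle genes 4 were lower (median -0.58), led by the pyruvate dehydrogenase subunit Pdhb (-1.68). Carriers and pores were lower by 1 in 2 of 15 (median -0.24), among them Timm23 (-1.56). Antioxidant enzymes were lower in 2 of 10 (median -0.39), among them the lipid peroxide reductase Gpx4 (-1.50). Hypoxia-responsive genes were lower in 2 of 10 (median -0.25), among them Slc2a1 (-1.40), and assembly factors in 4 of 33 (median -0.36). These medians lay near the -0.30 of all genes. Mitochondrial ribosomal genes were lower in 8 of 77 (median -0.48) and cytosolic ones in 5 of 77 (median -0.19). None of 11 biogenesis regulators was past 1. Dissociation and heat shock genes were lower by 1 in 4 of 14 cases, and their part in the result was not tested.

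**Figure D5:**
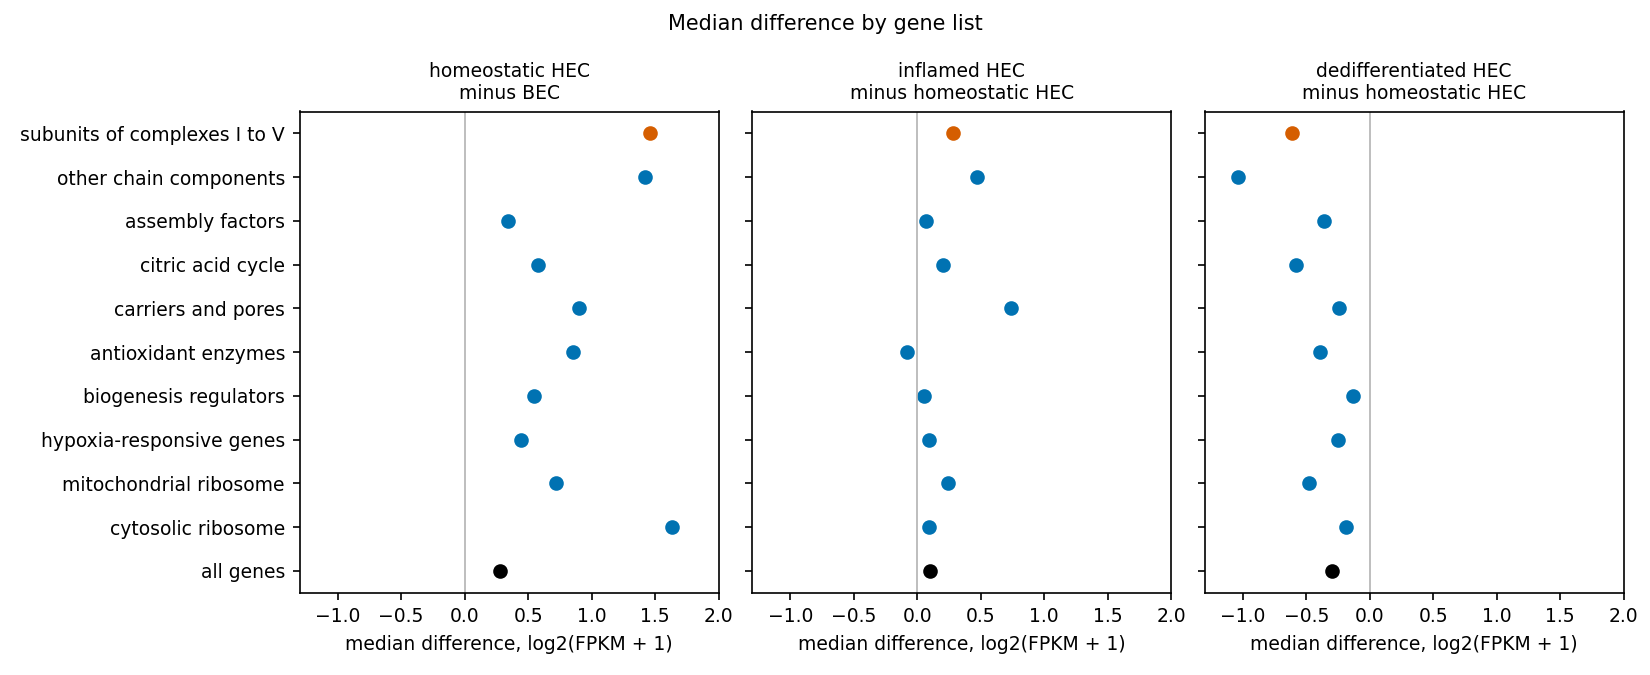
Median difference of mean log2(FPKM + 1) for the subunit genes and for 9 other gene lists in the 3 comparisons. In homeostatic HEC minus BEC the cytosolic ribosome (1.63), the subunit genes (1.46) and the other chain components (1.42) lie furthest right, and in dedifferentiated minus homeostatic HEC the other chain components lie furthest left (-1.04).

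From cell to cell within a group, subunit genes were only weakly related. The median Spearman correlation between 2 genes of the same complex was 0.09 over 64 inflamed HEC, 0.04 over 44 dedifferentiated HEC, 0.06 over 79 homeostatic HEC and 0.07 over 32 BEC. For genes of different complexes it was 0.08, 0.05, 0.05 and 0.08, and for other genes detected as widely 0.03, 0.03, 0.04 and 0.06. Cells share depth and the number of detected genes, and after removal of the latter the values were 0.08, 0.03, 0.04 and 0.04 within complexes and 0.00 between other genes in all 4 groups. In such sparse values these weak correlations are no finding. The mean level over the subunit genes went with the number of detected genes in a cell (Spearman 0.54, 0.65, 0.73 and 0.76), while their share of summed FPKM did so less (0.03, 0.13, 0.24 and -0.15).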

How the data were processed

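Each of the 220 libraries is 1 cell. The deposited table holds FPKM values computed by the authors. CASAVA 1.8, RSEM 1.2.18 and mm10 are named per the submitters' processing notes, without their order, and the sources used here do not give the annotation, cell filters or treatment of doublets. RSEM divides reads among near-identical sequences, so genes with processed pseudogenes or close copies, frequent among these subunits, are uncertain. Gene positions were looked up in GENCODE release 21 of the mouse series (M21, GRCm38) for 83 of 84 genes.

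From the deposited FPKM, means and SDs of log2(FPKM + 1) over cells, differences of means, detection at 1 FPKM with exact Clopper-Pearson 95% intervals, and the log2 ratio of arithmetic means were computed with Python 3.11.15, numpy 2.4.6, pandas 2.3.3 and scipy 1.17.1. A difference on this scale understates that of low genes. Genes detected in over 10% of cells of at least 1 compared group were kept. FPKM are not counts, and with 1 sample per group no p-value was computed. Cells with a correlation above 0.9 were averaged. Depth was approximated from the spacing of the low FPKM of 5412 genes with 1 transcript and lay between 704863 and 4907321 fragments. On 20 simulated cells it was 0.999 to 1.00 times the true depth. These cells were drawn as whole fragments over the same transcript lengths, so the check cannot show how near the real depths are. No spike-in was analysed.

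Named genes were, per complex, the 3 highest and the lowest in mean level, every subunit gene past 1 in size (up to 12 per direction and comparison), the isoform sets, complex II and up to 4 members past 1 of each other list. Other genes named, such as Uqcrc2, Ndufs4 and Cyc1, were chosen after their values or the rule had been seen. A gene named by this rule is not reported here. The genes and lists were chosen with earlier results of these data known. The alternatives tried were other pseudocounts, scalings, filters, size limits, arithmetic means, sets of cells and all 220 cells.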

Additional observations from a re-analysis of the deposited data

How the results depend on the processing

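The mean level over the subunit genes kept its direction in all 13 alternatives for homeostatic HEC minus BEC (1.28, range 0.24 to 1.63) and for inflamed minus homeostatic HEC (0.24, range 0.09 to 0.34). For dedifferentiated minus homeostatic HEC (-0.56, range -0.66 to 0.08) it was below 0 in 11 and above 0 in 2, at 0.04 with arithmetic means and 0.08 with arithmetic means in cells of 2500 to 4500 detected genes. Counts of genes past 1 depended on the setting, and the cause was not tested. Beside the counts, shares of all genes tested at the same setting are given. For homeostatic HEC minus BEC (50 higher, 0 lower), 32 were higher with a pseudocount of 10 (all genes 6.13%). Arithmetic means gave 10 higher and 1 lower (all genes 28.7% and 21.8%), and median ratios 34 higher and 1 lower (all genes 10.8% and 8.51%). The window of 2500 to 4500 genes gave 41 higher and 1 lower (all genes 13.7% and 8.67%). For inflamed minus homeostatic HEC (8 and 0), a pseudocount of 0.1 gave 16 higher and 2 lower (all genes 15.7% and 6.04%). A pseudocount of 10 gave 2 higher (all genes 1.19%). Median ratios gave 4 higher and 1 lower (all genes 3.99% and 2.79%), and arithmetic means 1 higher and 2 lower (all genes 18.3% and 13.1%). A size limit of 1.5-fold gave 21 higher and 3 lower (all genes 15.7% and 7.71%). Rescaling without Glycam1 and Ccl21a gave 1 lower (all genes 3.73%), and the window of cells 2 lower (all genes 3.95%). For dedifferentiated minus homeostatic HEC the main setting gave 0 higher and 18 lower. With a pseudocount of 0.1, median ratios, arithmetic means, the window of cells or the 1.5-fold limit, 1 gene was higher. At these settings the share of all genes that were higher ran from 1.97% in the window to 17.2% with arithmetic means. The number lower was 5 with a pseudocount of 10, 5 with median ratios and 2 with arithmetic means. It was 11 in the window and 39 with the 1.5-fold limit. Of all genes, 1.32%, 4.02%, 22.5%, 6.66% and 27.1% were lower in the same order of settings. Further combinations were chosen after seeing the data. Arithmetic means after rescaling without Glycam1 and Ccl21a gave a mean level of 0.24 with 9 higher and 2 lower in homeostatic HEC minus BEC. They gave 1 higher and 2 lower in inflamed HEC, and 1 higher and 3 lower in dedifferentiated HEC. Of all genes, 26.9% were higher and 25.3% lower, 16.3% and 15.8%, and 16.1% and 25.9% in the same order of comparisons. Arithmetic means within the window gave 16 higher and 1 lower, 3 higher and 2 lower, and 4 higher and 2 lower in the same order of comparisons. Of all genes these were 28.8% and 23.6%, 20.2% and 16.9%, and 19.4% and 22.1%. Scaling moved the median of all genes from 0.28 to 0.07 (homeostatic HEC minus BEC) and from -0.30 to -0.14 (dedifferentiated HEC) with median ratios. Leaving out cells with markers of a type other than blood or high endothelial, or keeping all 220 cells, kept each count within 1.5 times. No paired analysis was possible because the numbers in the labels name cells and each group is 1 sample. With 32 BEC, a share of cells is known only within wide limits, as for Cox7b (43.7% to 78.9%).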
